A study of Mus musculus with 8 samples.

Results

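Mature miRNAs were compared between day 0 and day 3 of differentiation in control C2C12 cells. These are a mouse skeletal myoblast line that stops dividing and fuses into myotubes when serum is withdrawn. Both groups carried a negative control hairpin (shNC) delivered by lentivirus and selected with puromycin, and the sources do not say whether the line was 1 clone or a pool. The day 0 cells are taken from their label to be those in growth medium before the switch, which the paper's protocol made at full confluence. The day 3 cells had spent 3 days in differentiation medium with horse serum. Small RNA was sequenced from 1 library of each, out of 8 samples in the series, which also held C2C12 cells with a hairpin against Perk (shPerk) at the same days. Of 1978 mature miRNAs listed, the 593 with at least 1 CPM (counts-per-million, over all reads counted on miRNAs) in at least 1 of both shNC libraries were kept, and they held 99.99% of the reads of each library. At this threshold miR-7073-5p, with 10 reads at day 0 and 12 at day 3, was just inside, and miR-6963-3p, with 11 and 8 reads, was just outside. The miRNAs left out comprised 581 with reads under the threshold and 804 with 0 reads in both libraries.

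Mature miRNAs are short RNAs that guide Argonaute proteins to messenger RNAs, mostly by pairing through the seed (bases 2 to 8), and reduce the stability and translation of those messengers. In muscle, miR-1, miR-133 and miR-206 are made under the control of myogenic factors such as MyoD and Mef2. miR-1 and miR-206 are known to promote differentiation, and several other miRNAs restrain the cell cycle or keep muscle stem cells quiescent.

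The sequences of the miRNAs on which the results turned were taken from RefSeq (GRCm38.p6), which held 486 of the 593 miRNAs, or 82.0%. The seed is in capitals and each is written from its 5′ end. The first set is the muscle miRNAs that rose. miR-206-3p (chr1:20679055-20679076, plus strand) and miR-133b-3p (chr1:20682834-20682855, plus strand) both lie in exons of the lincRNA Gm28653. miR-499-5p (chr2:155622893-155622913, plus strand) lies in an intron of Myh7b and miR-208b-3p (chr14:54975710-54975731, minus strand) in an intron of Myh7, both myosin heavy chain genes, so that 2 members of this set sit inside muscle genes. miR-1a-3p and miR-133a-3p are named only.
miR-206-3p: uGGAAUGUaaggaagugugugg
miR-133b-3p: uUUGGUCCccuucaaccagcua
miR-499-5p: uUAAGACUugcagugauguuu
miR-208b-3p: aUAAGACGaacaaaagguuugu

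The second set rose without being muscle specific and shows where seeds were shared. miR-148a-3p (chr6:51269829-51269850, minus strand, outside other annotated genes) and miR-152-3p (chr11:96850439-96850459, plus strand, intron of Copz2) have 1 seed in common. miR-322-5p (chrX:53054306-53054327, minus strand) and miR-195a-5p (chr11:70235062-70235082, plus strand) share the seed of the miR-15/16 family and lie outside other annotated genes. miR-503-5p (chrX:53054027-53054049) and miR-351-5p (chrX:53053315-53053338) lie beside miR-322 on the minus strand, and miR-351-5p carries the seed of miR-125.
miR-148a-3p: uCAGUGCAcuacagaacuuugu
miR-152-3p: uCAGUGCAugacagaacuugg
miR-322-5p: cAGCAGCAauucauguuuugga
miR-195a-5p: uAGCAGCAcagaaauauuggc
miR-503-5p: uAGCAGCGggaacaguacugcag
miR-351-5p: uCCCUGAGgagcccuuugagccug
miR-27b-3p (chr13:63300760-63300780, plus strand) lies in an exon of 2010111I01Rik and, on the opposite strand, an intron of Fancc. miR-181a-5p has copies at chr1:137966468-137966490 and chr2:38852741-38852763 (both plus strand), the first in an intron of Gm4258 and the second in an intron of Nr6a1 on the opposite strand. miR-335-5p (chr6:30741314-30741336) and miR-335-3p (chr6:30741354-30741375) are the arms of 1 hairpin on the plus strand, in an intron of the imprinted gene Mest. miR-218-5p has copies in introns of Slit2 (chr5:48223966-48223986) and Slit3 (chr11:35616840-35616860), both plus strand.
miR-27b-3p: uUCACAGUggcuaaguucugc
miR-181a-5p: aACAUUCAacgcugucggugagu
miR-335-5p: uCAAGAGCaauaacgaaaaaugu
miR-335-3p: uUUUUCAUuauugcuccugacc
miR-218-5p: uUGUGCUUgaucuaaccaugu

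The third set holds miRNAs called lower, together with miR-182-5p and miR-183-5p, which missed the fold limit with TMM scaling. Both come from the same cluster as miR-96-5p. miR-7a-5p has copies in an intron of Hnrnpk (chr13:58392841-58392863, minus strand) and outside other annotated genes (chr7:78888295-78888317, plus strand), and miR-7b-5p (chr17:56243017-56243040, plus strand) has the same seed. miR-182-5p (chr6:30165962-30165986), miR-96-5p (chr6:30169506-30169528) and miR-183-5p (chr6:30169711-30169732) come from hairpins that lie within 3820 bp on the minus strand, outside other annotated genes. The seeds of miR-182-5p and miR-96-5p differ at their last base.
miR-7a-5p: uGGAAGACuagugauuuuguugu
miR-7b-5p: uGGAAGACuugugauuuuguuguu
miR-182-5p: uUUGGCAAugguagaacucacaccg
miR-96-5p: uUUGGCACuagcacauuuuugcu
miR-183-5p: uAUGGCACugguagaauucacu

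The shNC libraries held 11321915 reads at day 0 and 11993448 at day 3, and the shPerk libraries 8800977 and 9428246. miR-21a-5p, which is abundant in many cultured cells, took 26.2% of the shNC reads at day 0 and 18.0% at day 3. With 1 library a side no difference has a replicate check, and no p-value is given for the conditions. Calling a miRNA higher or lower at day 3 took a log2 fold change beyond 1, scaled by edgeR's TMM factors, together with a Benjamini-Hochberg value under 0.05 in an exact binomial test of its reads in both tails, which compares the libraries only. The 95% Clopper-Pearson intervals given with log2 fold changes cover counting error of the reads only, because each side has 1 library. Reads copied by PCR are not counts of separate molecules, and the sources name no molecular identifiers. The intervals can therefore be too narrow even for counting error.

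With TMM scaling, more of the abundant miRNAs were called higher than lower at day 3. In all, 89 of 593 miRNAs (15.01%) were called higher and 63 (10.6%) were called lower, and 441 were not called. Of these calls, 13 higher and 18 lower were of miRNAs that passed the filter in 1 library alone, the one where they were high. The balance rested on the scaling. With scaling to the total count the median log2 fold change moved from 0.05 to -0.30, and 47 miRNAs were called higher and 125 lower. With each of 5 scalings, 47 miRNAs (7.93%) were called higher and 63 (10.6%) lower. TMM gave the highest median change of the 5 scalings. A miRNA below the fold limit of -1 with TMM was therefore bound to stay below it with the others. Keeping the call with every scaling is thus a check on the rises and not on the falls. Among the 331 miRNAs whose mean reached 10 CPM, 59 were higher and 18 lower, and the median change was 0.22. Among the 262 below that level, 30 were higher and 45 lower, with a median of -0.28. Of the 84 miRNAs at 1000 CPM or more, 16 were called higher and 2, miR-7a-5p and miR-96-5p, lower.

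**Figure D1:**
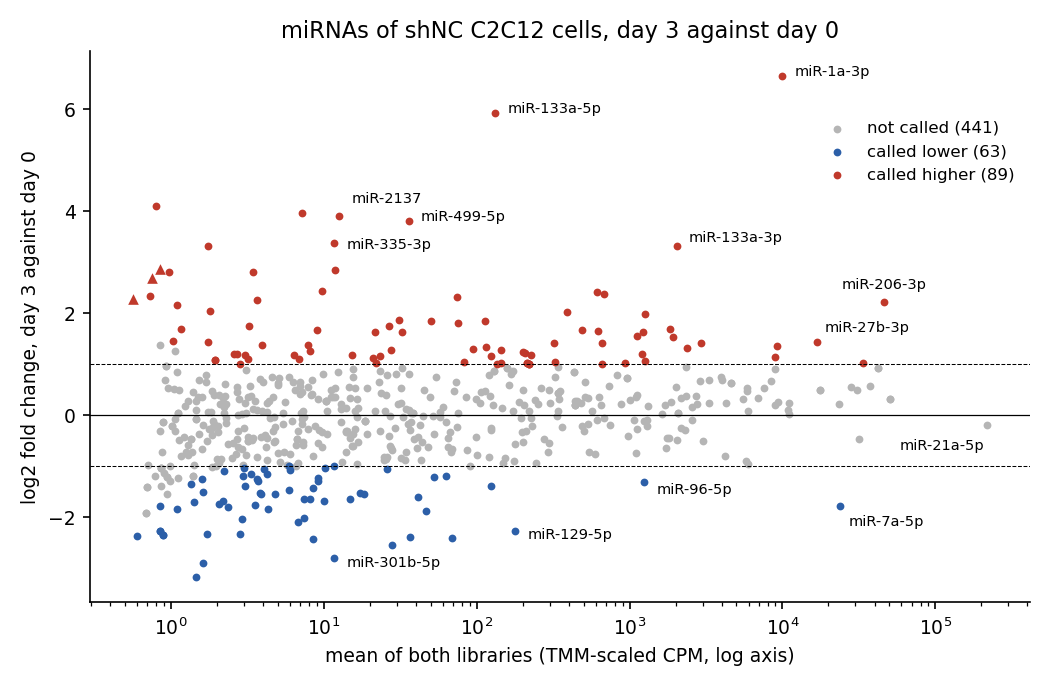
Log2 fold change of day 3 against day 0 in shNC cells (vertical axis) against the mean of both libraries in TMM-scaled CPM (horizontal log axis) for the 593 miRNAs, 1 point each. Dashed lines mark log2 fold changes of 1 and -1, and triangles are the 3 miRNAs with 0 reads at day 0, placed at their lower bound. The 89 called higher (red) extend across the whole range of abundance, and the 63 called lower (blue) sit mostly to the left.

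At a mean of 10 CPM or more, the largest rises were of the muscle miRNAs miR-1a-3p and miR-133a-5p. Below that level miR-6923-5p, outside the muscle list, had 0 and 18 reads, at least 7.26-fold higher against a floor of 3 reads at day 0. It passed the filter through its day 3 reads alone. The summed reads of the muscle list went from 266415 to 1127482, from 2.35% to 9.40% of the shNC library. In such bulk libraries, more cells expressing a miRNA and more RNA per cell cannot be told apart, nor can the reverse for a fall. Of 22 mature arms in the muscle list, 15 passed the filter, 10 were called higher and 0 lower, against 15.01% and 10.6% of all miRNAs. All 10 kept the call with each of 5 scalings. The log2 fold changes of the 15 had a median of 2.38, against 0.05 for all miRNAs. With the arms at 0 reads set to their lower bound, the median of the 15 was 2.27. The list was drawn up from textbook muscle miRNAs with earlier results known, and some of the arms share hairpins. miR-133c, miR-1a-1-5p and miR-208b-3p passed the filter through their day 3 reads alone.

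miR-1a-3p, which represses the histone deacetylase HDAC4 and promotes differentiation, had 2487 reads at day 0 and 207393 at day 3, so that its log2 fold change was 6.66 (95% interval 6.60 to 6.71). In the brackets that follow, a single value is a log2 fold change and a range is its interval. miR-1a-3p went from 0.0220% to 1.73% of the reads. miR-206-3p, a skeletal muscle miRNA that shares its seed with miR-1, had 206961 and 802676 reads, with a log2 fold change of 2.23 (2.22 to 2.24). It was already abundant before differentiation and made up 6.69% of the reads at day 3. In TMM-scaled CPM miR-206-3p had the largest gain of all miRNAs, from 16148 to 75760, and miR-1a-3p went from 194 to 19575. The gains between these belonged to miR-199a-3p, with miR-199b-3p at the same counts, and to miR-143-3p.

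miR-133a-3p, which is known to favour myoblast proliferation through serum response factor, had 4750 and 39096 reads, with a log2 fold change of 3.32 (3.27 to 3.36). Its other arm, miR-133a-5p, had 54 and 2734 reads, with a log2 fold change of 5.93 (5.55 to 6.35), so both arms rose but by unequal amounts. miR-133b-3p, from the transcript that also yields miR-206, had 2789 and 12014 reads (log2 fold change 2.38, 2.32 to 2.44), and miR-133b-5p had 204 and 520 reads (1.62, 1.39 to 1.87). The miR-206 and miR-133b hairpins span 3878 bp together, and their main arms changed by 2.23 and 2.38. miR-133c, with 1 and 16 reads, had a log2 ratio of 4.10 with an interval of 1.59 to 9.66. How reads matching several family members were counted is not given, so its level is uncertain.

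The miRNAs encoded inside myosin genes rose from very low levels. miR-499-5p had 61 and 710 reads, with a log2 fold change of 3.81 (3.44 to 4.22). miR-208b-3p had 0 reads at day 0 and 12 at day 3, which is at least 4.84-fold higher against a floor of 3 reads at day 0. miR-208a-3p, the arm from the cardiac myosin gene Myh6, had 0 reads and 1 read and was not tested. miR-1a-1-5p, the passenger arm of miR-1a, had 0 and 16 reads, at least 6.45-fold higher against the same floor.

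Not every muscle miRNA passed the fold limit. miR-486a-5p and miR-486b-5p, which target Pax7 in muscle, had identical counts of 46214 and 59206 reads, a log2 fold change of 0.63 (0.61 to 0.65), and cannot be told apart. miR-486b-3p was at 0.38 and miR-486a-3p at 0.24, the latter turning to -0.11 with total-count scaling. miR-206-5p had 276 and 399 reads, with a log2 fold change of 0.81 (0.58 to 1.03). The other members not tested were miR-1a-2-5p, miR-208a-5p and miR-208b-5p at 0 reads in both libraries, miR-499-3p with 1 and 0 reads, miR-1b-3p with 6 and 3, and miR-1b-5p with 7 and 3.

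In the shPerk libraries the muscle list took smaller shares of the reads on both days, as values set side by side and not tested. The muscle list made up 0.481% of the shPerk reads at day 0 and 2.51% at day 3, and 8 of 12 arms tested were called higher, in a comparison in which 94 of 573 miRNAs (16.4%) were called higher and 69 (12.04%) lower. miR-1a-3p had 1050 and 30759 shPerk reads, a log2 fold change of 5.22. miR-206-3p had 32128 and 196072 (2.96), miR-133a-3p 408 and 1806 (2.49), and miR-499-5p 56 and 336 (2.93). The day 3 against day 0 changes thus went upwards in both cell lines for these 4 miRNAs, with miR-206-3p the 1 of them with the greater fold in shPerk cells.

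**Figure D2:**
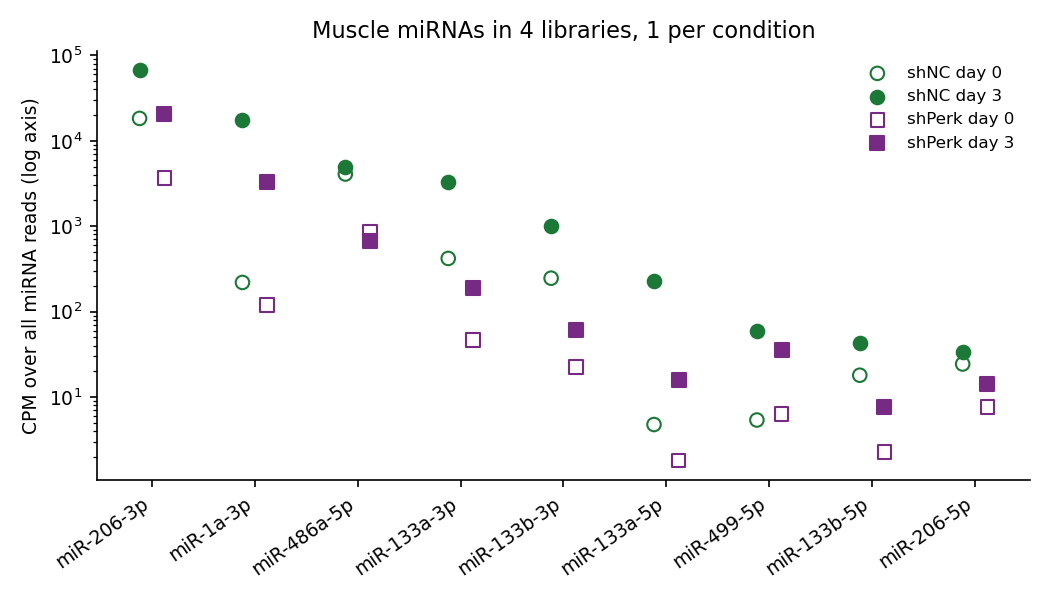
CPM over all miRNA reads (vertical log axis) of 9 muscle miRNAs in the shNC (circles) and shPerk (squares) libraries, open at day 0 and filled at day 3, 1 library per condition without error bars. In shNC cells each filled circle lies above its open circle, by the widest margin for miR-1a-3p and miR-133a-5p. miR-486a-5p is the only 1 of the 9 whose shPerk point is lower at day 3.

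Outside the muscle list, the largest rises at a mean of 10 CPM or more were spread over host genes of several kinds. miR-335-3p had 26 and 225 reads, with a log2 fold change of 3.38 (2.80 to 4.03), and its partner arm miR-335-5p, which passed the filter through its day 3 reads alone, had 11 and 143 reads, 3.96 (3.09 to 5.01). Both arms of this Mest hairpin therefore rose in shNC cells. miR-2137, in an intron of Zfp185, had 20 and 251 reads (3.92, 3.27 to 4.66). miR-218-5p, which is hosted by the Slit guidance genes, had 2498 and 10996 reads (2.41, 2.35 to 2.48). miR-199b-5p had 321 and 1318 reads (2.31, 2.14 to 2.49) and miR-148a-5p, with 37 reads at day 0, a change of 2.85 (2.35 to 3.40). miR-9-5p, best known from neural progenitors, had 1956 and 6604 reads (2.03, 1.96 to 2.10), and miR-9-3p had 136 and 347 (1.62). Apart from miR-335-5p and miR-9-3p, which are given beside their partner arms, these and the muscle arms above make up the 12 largest rises. All of them kept the call with each of 5 scalings.

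The cluster around miR-322 and miR-503 on the X chromosome rose with differentiation. miR-322, the mouse form of miR-424, and miR-503 are known to target Cdc25A and to promote exit from the cell cycle in myoblasts. All 13 arms listed were tested, and 10 were called higher and 0 lower, against 15.01% and 10.6% of all miRNAs. The call was kept with each of 5 scalings in 5 arms. miR-450a-2-3p passed the filter through its day 3 reads alone. The median log2 fold change was 1.16. miR-322-5p had 3825 and 9937 reads (1.65, 1.60 to 1.71), and miR-322-3p had 7682 and 19638 (1.63, 1.59 to 1.67), the more abundant arm in both libraries. miR-503-5p had 4590 and 10138 reads (1.42), miR-351-5p 20513 and 45297 (1.42) and miR-542-3p 3006 and 7904 (1.67). These 5 arms were those called with every scaling. miR-450b-5p went the other way, from 3039 to 1755 reads (log2 fold change -0.52), although its hairpin lies in the same stretch of 6353 bp. In the shPerk pair, 0 of the 13 were called higher and 1 lower, against 16.4% and 12.04% of all miRNAs tested there. The log2 fold changes were -0.72 for miR-503-5p and -0.57 for miR-351-5p.

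Of the miRNAs linked to cell cycle exit and quiescence, some rose and others were not called. miR-195a-5p, which shares the seed of miR-322-5p and holds satellite cells out of the cycle, had 158 and 439 reads (1.75, 1.48 to 2.02), and miR-497a-5p from the same hairpin cluster had 186 and 344 (1.16, 0.90 to 1.43), the latter not called with total counts. miR-708-5p had 11 and 64 reads (2.80, 1.88 to 3.89). miR-31-5p, which holds Myf5 messenger RNA silent in quiescent satellite cells, had 49978 and 48781 reads (0.24). Of 7 arms tested in the quiescence list, 4 were higher and 0 lower, against 15.01% and 10.6% of all miRNAs. Of the 4, miR-708-5p and miR-708-3p passed the filter through their day 3 reads alone. Among the 5 arms at 1 CPM or more in both libraries, 2 were higher, against 76 of all 519 such miRNAs. The seed shared by miR-322-5p and the miR-15/16 family, over the 6 carriers with a RefSeq sequence, summed to 28899 reads at day 0 and 34535 at day 3, a log2 fold change of 0.53, and miR-16-5p, the carrier with the most reads, had 21753 and 21403 reads (0.25).

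Other families with known roles in muscle rose in part, and their counts of arms called higher stand beside 15.01% of all 593 miRNAs. Of the 6 arms of the miR-148 and miR-152 family, 3 were higher, each with every scaling, and 0 lower. miR-148a-3p, which targets ROCK1 in myoblasts, had 6538 and 21323 reads (1.98, 1.94 to 2.02) and miR-152-3p 11100 and 29713 (1.70, 1.66 to 1.73), whereas miR-148b-3p had 16652 and 12710 (-0.12). Their common seed went from 0.303% to 0.532% of the reads. Of the 10 arms of the miR-181 family, which lowers the homeobox repressor Hox-A11, 6 were higher and 0 lower, with 3 called at every scaling, and miR-181a-5p had 7373 and 17784 reads (1.54, 1.51 to 1.58). Of the 4 arms of the miR-143 and miR-145 pair, typical of smooth muscle and mesenchymal cells, 3 were higher, and miR-143-3p had 283580 and 475516 reads (1.02). That call was lost with every other scaling, down to 0.66 with total counts.

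The clusters of miR-23, miR-27 and miR-24 did not move alike. miR-27b-3p, which limits Pax3 as muscle progenitors begin to differentiate, had 116073 and 258378 reads (1.43, 1.42 to 1.44) and its neighbour miR-23b-3p 17466 and 35965 (1.32, 1.29 to 1.34, not called with total counts). miR-27a-3p had 83716 and 110228 reads (0.67) and miR-23a-3p 20948 and 25469 (0.56), and neither was called. Of 11 arms tested in these clusters, 2 were higher and 0 lower, near the 15.01% called higher among all 593 miRNAs. miR-30a-5p had 66499 and 140590 reads (1.35). It was 1 of 3 called higher among 11 arms of the miR-30 family, against 15.01% of all miRNAs. None of the 3 kept the call with every scaling. miR-128-3p, enriched in brain and muscle, had 71475 and 130599 reads (1.14, 1.13 to 1.16), which fell to 0.79 with total counts and was then not called.

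The joint miR-34 and miR-449 family had 5 of 7 arms higher, 3 of them with every scaling, and 0 lower. Of all miRNAs, 15.01% were called higher. The arms counted include miR-449a-5p (1.68, called higher) and miR-449c-5p (0.33, not called). miR-34 is known as a p53-induced brake on the cell cycle. miR-34c-5p had 12627 and 30350 reads (1.54, 1.51 to 1.57) and miR-34b-5p 1603 and 3094 (1.22), while miR-34a-5p, from another gene, had 2781 and 3313 (0.53). In the shPerk pair miR-34c-5p had 22622 and 16244 reads, with a log2 fold change of -0.13, so the rise was not seen there. The difference between the pairs was not tested. Of 6 miRNAs tied to the unfolded protein response 4 were higher, against 15.01% of all miRNAs. Of these 4, 3 passed the filter through their day 3 reads alone, namely miR-204-5p and both miR-708 arms of the quiescence list. The fourth, miR-30c-2-3p (1152 and 1915 reads, 1.01) was called with TMM scaling alone. miR-204-5p had 3 and 13 reads, a log2 ratio of 2.34 (0.53 to 4.84).

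**Figure D3:**
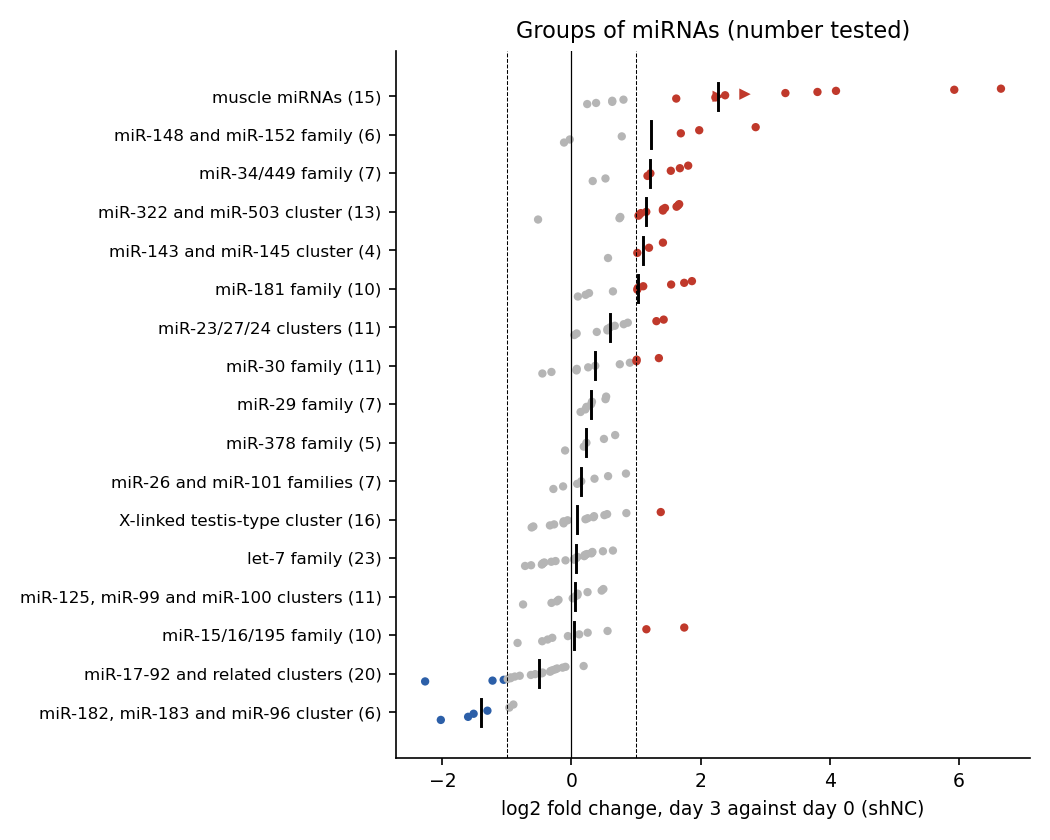
Log2 fold changes of day 3 against day 0 in shNC cells (horizontal axis) for the tested arms of 17 groups, 1 point per arm, red for called higher, blue for called lower and grey for not called. Black bars are medians, right-pointing triangles are lower bounds for arms with 0 reads at day 0, and dashed lines mark 1 and -1. The muscle miRNAs reach farthest right, with a median of 2.27 at the bounds, and the cluster of miR-182, miR-183 and miR-96 lies wholly below 0, with a median of -1.41.

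Several families often tied to muscle or growth showed no call in either direction with TMM scaling. These were the let-7 family (23 arms tested), the clusters of miR-125, miR-99 and miR-100 (11), the miR-29 family (7), miR-26 and miR-101 (7), the miR-378 family (5) and the miR-221 and miR-222 cluster (4). Their medians lay between 0.05 and 0.43, and the change from TMM to total-count scaling is of about that size, so no direction is given for these families. The let-7 seed family, with 10 tested members matched to a sequence, took 19.2% of the reads at day 0 and 16.9% at day 3. let-7c-5p had 580935 and 595368 reads and let-7f-5p 574735 and 595256, with log2 fold changes of 0.31 and 0.33 that turned to -0.05 and -0.03 with total counts. let-7i-5p had 471378 and 283495 reads (-0.46). miR-29a-3p, which targets collagens, had 61509 and 73804 (0.54), miR-26a-5p, which targets Ezh2, had 388015 and 475384 (0.57), and miR-378a-3p, which targets the MyoD inhibitor MyoR, had 324229 and 379993 (0.50).

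miR-7a-5p had the most reads among the miRNAs called lower. It had 472935 reads at day 0 and 114498 at day 3 (-1.77, -1.78 to -1.76) and went from 4.18% to 0.955% of the reads. miR-7b-5p, which carries the same seed, had 933 and 211 reads (-1.87, -2.09 to -1.65). miR-7 is known as a regulator of growth factor signalling through the EGF receptor and IRS proteins. Both were called with each of 5 scalings, as was every miRNA called lower with TMM. In the shPerk pair, miR-7a-5p had 194960 and 35171 reads, with a log2 fold change of -2.12, and miR-7b-5p 383 and 61 (-2.30). The fall was therefore present in both cell lines, in libraries that the pairs do not share.

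The cluster of miR-182, miR-183 and miR-96, abundant in sensory organs and in dividing tumour cells, had 4 of 6 arms called lower in shNC cells. Of all miRNAs, 10.6% were called lower. All 6 arms of the cluster were below 0, their median at -1.41. The 4 kept the call with every scaling, as did every miRNA called lower with TMM. miR-96-5p had 22756 and 7627 reads (-1.30, -1.34 to -1.26), miR-182-3p 797 and 217 (-1.60), miR-183-3p 329 and 95 (-1.52) and miR-96-3p 153 and 31 (-2.02). The main arms of miR-182 and miR-183 missed the fold limit with TMM scaling, with miR-182-5p at 101488 and 43033 reads (-0.96) and miR-183-5p at 96982 and 42971 (-0.90). miR-182-5p was called lower with every other scaling, from -1.02 with the median of ratios to -1.32 with total counts. miR-183-5p was called lower with total counts alone, at -1.26. The summed reads of the cluster went from 1.97% to 0.784% of the library. In the shPerk pair the cluster went from 0.648% to 0.461% of the reads, with a median of -0.62. There 3 of 6 arms were called lower, against 12.04% of all miRNAs tested. Those 3 were miR-182-3p (-2.18), miR-183-3p (-1.04) and miR-96-3p (-3.47), while miR-182-5p had 0.00, miR-183-5p -0.19 and miR-96-5p 0.36. The difference between the pairs was not tested.

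The miR-17-92 cluster and its relatives, which are driven by MYC and E2F in dividing cells, had values mostly below 0. Of 20 arms tested, 3 were lower, 0 higher and 19 lay below 0, and their median was -0.51. With TMM scaling the share called lower, 3 of 20, is near the 10.6% of all miRNAs, and miR-18b-5p passed the filter through its day 0 reads alone. With total counts, where 125 of all 593 miRNAs were lower, the arms of these clusters were not counted. miR-92a-3p had 68643 and 32556 reads (-0.80), miR-17-5p 26622 and 16144 (-0.45) and miR-20a-5p 30252 and 21064 (-0.25). None of these 3 was called with TMM scaling. The called arms were miR-106a-5p (164 and 58 reads, -1.22), miR-92a-1-5p (451 and 180 reads, -1.05) and miR-18b-5p (18 and 3 reads, -2.27). In the shPerk pair 10 of 19 were lower, against 12.04% of all miRNAs tested there, with miR-92a-3p at -1.78.

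The other large falls at a mean of 10 CPM or more were of less abundant miRNAs. miR-301b-5p had 263 and 31 reads (-2.81, -3.40 to -2.27), miR-129-5p 3774 and 646 (-2.27, -2.39 to -2.15) and miR-383-5p 793 and 125 (-2.39, -2.67 to -2.12). All 3 fell by more than 2 on the log2 scale. miR-6540-5p had 1484 and 232 reads (-2.40), miR-1946a 609 and 86 (-2.55), miR-7689-3p 286 and 76 (-1.64), miR-1306-3p 348 and 99 (-1.54) and miR-130b-5p 2301 and 723 (-1.40). All were called with each of 5 scalings, which holds for every miRNA called lower with TMM. Among the imprinted miRNAs, miR-675-5p and miR-675-3p from H19 had 721 and 326 reads and 528 and 244 reads (-0.87 and -0.84) and were not called, while miR-483-3p from Igf2 had 16 and 64 (2.26, 1.47 to 3.16).

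**Figure D4:**
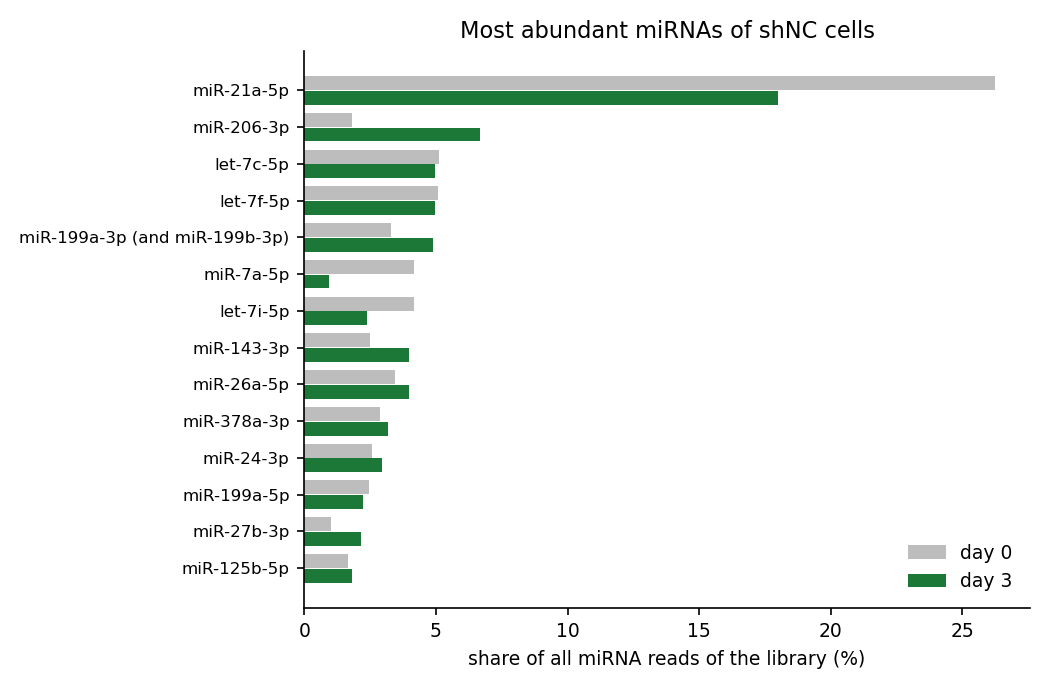
Share of all miRNA reads (horizontal axis, percent) of the 14 most abundant miRNAs in the shNC libraries at day 0 (grey bars) and day 3 (green bars), with miR-199a-3p and miR-199b-3p, whose counts were identical, shown once. miR-21a-5p shrinks from 26.2% to 18.0% and miR-7a-5p from 4.18% to 0.955%, while miR-206-3p grows from 1.83% to 6.69%.

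The composition of the most abundant miRNAs changed through few members. The 10 with the most reads held 60.2% of the shNC reads at day 0 and 58.5% at day 3, with miR-199a-3p and miR-199b-3p each counted although their counts were identical. miR-21a-5p had 2971129 and 2159642 reads, with a log2 fold change of -0.19 that was not called. miR-199a-3p and miR-199b-3p had identical counts of 372811 and 587585 reads (0.93) and are reported as 1 uncertain level. Such identical counts, above 20 reads in all, covered 29 miRNAs in 13 groups. miR-24-3p had 291309 and 354771 reads (0.56) and miR-199a-5p 277346 and 265434 (0.21). The others of the 10 in either library are described above.

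Both arms of a hairpin moved together where both were called. Of 162 hairpins with both arms tested, 127 had log2 fold changes of the same sign, and in 21 both arms were called, 16 higher and 5 lower, with no hairpin split between directions. Arms of 1 hairpin share a precursor and are not independent. Among the 21, both miR-708 arms, miR-335-5p and miR-483-5p passed the filter through their day 3 reads alone, and the 5p arm of miR-1933 through its day 0 reads alone. Besides the hairpins above, the lower ones included miR-1933 (34 and 3 reads for the 5p arm, 184 and 28 for the 3p arm) and miR-6540. These were named after their values were seen.

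Markers of blood cells, epithelium, liver and islets, and embryonic stem cells had few reads in both libraries, whereas the endothelial and neuronal lists had more. The list for blood cells summed to 138 reads at day 0 and 130 at day 3, that for epithelium to 76 and 63, that for liver and islets to 117 and 50, and that for embryonic stem cells to 17 and 11, with none of its 28 members tested. miR-126, the endothelial marker, had 983 and 1037 reads over both arms. The neuronal list, tested through miR-9 alone, summed to 2092 reads at day 0 and 6952 at day 3. Within these lists miR-142a-3p (28 and 60 reads, 1.37, 0.70 to 2.08) and miR-203-3p (12 and 27 reads, 1.43, not called with every scaling) were called higher. The other tested members of the blood and epithelial lists were not called, with 0.05 for miR-142a-5p, -0.87 for miR-451a, 0.16 for miR-200c-3p and -1.55 for miR-205-5p (18 and 5 reads). Their part in the changes above was not tested. miR-206-3p, a defining miRNA of skeletal muscle, was among the abundant miRNAs at day 0 already, which is the check of the myoblast label that these data allow.

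The change over 3 days was set beside that in shPerk cells, which was measured in a pair of libraries of its own. Of the 89 miRNAs higher in shNC cells, 80 were tested in the shPerk pair, where 34 were higher, 3 lower and 43 not called, and the median was 0.85 against 1.43 in shNC cells. Of the 63 lower in shNC cells, 51 were tested, and 18 were lower, 0 higher and 33 not called, at a median of -0.93 against -1.64. The 410 miRNAs not called in shNC cells and tested in the shPerk pair had a median of 0.01 there, with 50 higher and 46 lower. Over all 573 miRNAs tested in the shPerk pair, 16.4% were higher and 12.04% lower. The sets called in shNC cells were chosen by their shNC changes, so their medians in the 2 pairs cannot be compared as sizes of response. With total counts the miRNAs called higher in both pairs were 11 and those lower in both 52. miR-148a-3p rose in both (45125 and 149882 shPerk reads, 2.08), as did miR-181a-5p (1.68), miR-218-5p (1.99) and miR-195a-5p (1.30). miR-27b-3p had 0.57, miR-152-3p 0.87, miR-128-3p 0.83 and miR-322-5p 0.26 in shPerk cells and were not called there. Whether any of these changes differs between the cell lines was not tested.

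**Figure D5:**
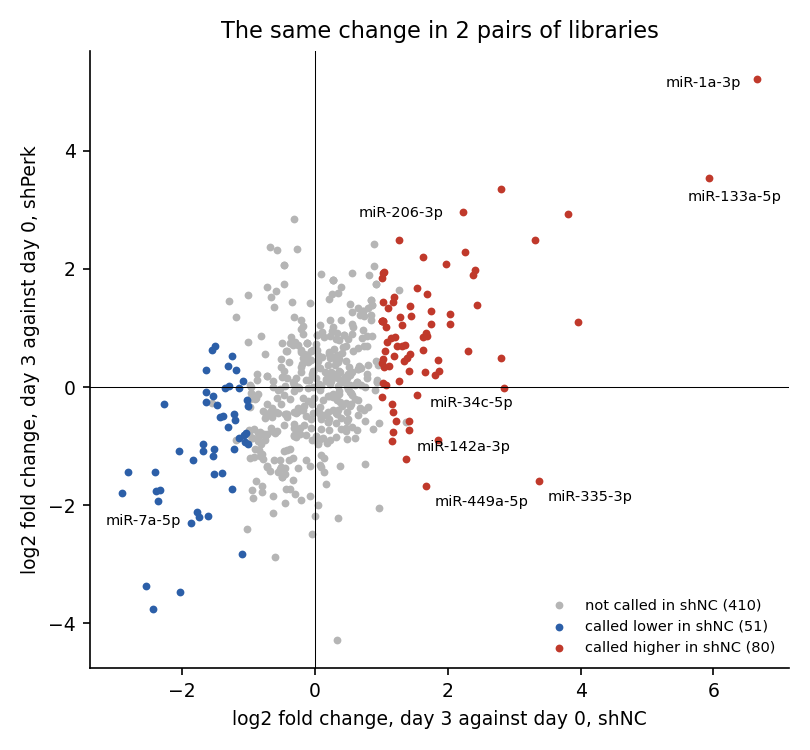
Log2 fold change of day 3 against day 0 in shNC cells (horizontal axis) and in shPerk cells (vertical axis) for miRNAs tested in both pairs, coloured by the call in shNC cells (80 higher, 51 lower, 410 not called). Points called higher lie mostly in the upper right, led by miR-1a-3p at 6.66 and 5.22, and miR-335-3p, miR-449a-5p and miR-142a-3p lie below 0 in shPerk cells.

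How many miRNAs were called depended on what spread replicates would have, which was not measured here. When edgeR's exact test was given a coefficient of variation of 0.2, 59 miRNAs were higher and 37 lower. At 0.4, 7 were higher, namely miR-1a-3p, miR-133a-3p, miR-133a-5p, miR-499-5p, miR-335-3p, miR-335-5p and miR-2137, and 0 were lower, where 31 higher and 16 lower passed the fold limit at an unadjusted p under 0.05.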

How the data were processed

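Total RNA was extracted with TRIzol, and the authors had linkers ligated to both ends, the product reverse-transcribed, amplified by PCR and cut from a gel, and the reads annotated with bowtie. Not given in the sources used here are the version of bowtie, the release of the miRNA annotation, and how reads fitting more than 1 miRNA were counted. The values the authors deposited are raw counts per mature miRNA and library, not normalized. The deposited tables also hold the authors' own fold changes and p-values, which were not used. Ligation and PCR favour some sequences, so counts were compared between libraries and not read as molar amounts. The ATF4 and P19 libraries were not used here.

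miRNAs with at least 1 CPM in either library were tested. TMM factors came from all listed miRNAs (edgeR 4.0.16 in R 4.3.3), with a prior count of 0.125. The two-sided exact binomial tests on the reads were adjusted by Benjamini-Hochberg, and calls needed an adjusted p under 0.05 and a log2 fold change beyond 1. Against 0 reads, a floor of 3 reads gave a lower bound. The depth of 8800977 to 11993448 reads put this floor at 0.250 to 0.341 CPM. The alternatives were total counts, the upper quartile, DESeq2 1.42.0's median of ratios, other filters, a prior count of 2, the fold limit alone, families with identical counts merged, and edgeR's exact test at assumed coefficients of variation of 0.2 and 0.4. TMM factors from the tested miRNAs only were added after the data were seen. The script was tested on simulated data.

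Those named are the 12 called miRNAs that rose most and the 12 that fell most among those averaging 10 CPM or more, the 10 with the most reads in each library, the 5 with the largest gain and the 5 with the largest loss of CPM, the tested members of the muscle list, and of every other list those with the largest change or most reads. The members and lists were chosen with earlier results of these data known. Sequences came from RefSeq (GRCm38.p6) and genes at their positions from GENCODE M21 on GRCm38. Sequences of under 80% of the miRNAs called higher were at hand (77.5%), so base composition was not compared. Python 3.11.15 with numpy 2.4.6, pandas 2.3.3 and matplotlib 3.10.9 was used.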

Additional observations from a re-analysis of the deposited data

Results flagged for a closer look

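In 3 miRNAs the change over 3 days was called in opposite directions in the shNC and the shPerk pair. With 1 library per condition the difference between the pairs was not tested. miR-335-3p, from an intron of Mest, had 26 and 225 reads in shNC cells, a log2 fold change of 3.38, and 168 and 44 reads in shPerk cells, -1.58. Its partner arm miR-335-5p was higher at day 3 in both, at 3.96 and 1.09. miR-449a-5p, of the miR-34 family, had 55 and 146 reads in shNC cells, 1.68, and 231 and 57 in shPerk cells, -1.67. miR-142a-3p, which marks blood cells, had 28 and 60 reads in shNC cells, 1.37, and 1977 and 665 reads in shPerk cells, -1.22. In each of the 3, the shPerk library had more reads than the shNC library at day 0.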

How the results depend on the processing

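No paired analysis was possible because each condition has 1 library, and no replicate could be left out. The main counts of 89 higher and 63 lower moved beyond 1.5 times in these cases. With total counts they were 47 and 125, with a filter of 10 CPM the lower count was 27, and with edgeR's exact test at assumed coefficients of variation of 0.2 and 0.4 they were 59 and 37, and 7 and 0. miRNAs called higher in both the shNC and the shPerk pair, 34 with TMM, were 11 with total counts, 22 with the median of ratios, 19 with the upper quartile and 22 with TMM factors from the tested miRNAs only, and those lower in both, 18 with TMM, were 52 with total counts and 30 with the upper quartile. Directions turned for let-7c-5p (-0.048), let-7f-5p (-0.033) and miR-486a-3p (-0.11), each with total counts. The remaining settings kept the counts within 1.5 times. Over 45 named miRNAs and 5 settings, 213 values kept their direction and call, 5 gained the call, 4 lost it and 3 turned. The 45 were the largest rises and falls, those with the most reads or the largest gain or loss of CPM, and the muscle list. All 4 losses were of miR-143-3p. miRNAs named only from other lists were not among the 45, and several lost the call with total counts, such as miR-128-3p, miR-23b-3p and miR-30a-5p. The floor of 3 reads, 0.265 CPM at day 0, limits what can be said of arms such as miR-208b-3p.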

Other observations

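Reads were summed over miRNAs that share a seed. The sums cover only the tested miRNAs matched to a RefSeq sequence. That of miR-27a-3p and miR-27b-3p went from 1.76% to 3.07% of the shNC reads. The seed of the miR-181 5p arms went from 0.182% to 0.317%. That of miR-7a-5p and miR-7b-5p went from 4.19% to 0.956%. The seed of miR-25-3p, miR-32-5p, miR-92a-3p and miR-92b-3p went from 0.928% to 0.475%, a log2 fold change of -0.61 in the sum, with none of its members called.

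The seed of miR-125a-5p, miR-125b-5p and miR-351-5p shows how 1 member can move a sum. miR-125b-5p had 188029 and 219017 reads (log2 fold change 0.49) and miR-125a-5p 62961 and 71987 (0.47), while miR-351-5p had 20513 and 45297 (1.42), and the sum changed by 0.58. The miR-344 seed, in introns of noncoding transcripts on chromosome 7, summed to 296 and 866 reads (1.82), mostly miR-344-3p with 280 and 838. The large imprinted cluster of Dlk1-Dio3, active in embryonic muscle, was nearly silent in shNC cells, with 82 and 48 reads over 101 listed miRNAs. Of the X-linked cluster typical of testis, 16 miRNAs were tested and 1, miR-547-3p with 56 and 121 reads (1.38), was called higher, against 15.01% of all miRNAs. Among the miRNAs of the Hox clusters, 8 were tested and 2 were lower, against 10.6% of all, miR-615-5p with 948 and 336 reads (-1.22) and miR-10b-5p with 66 and 23 (-1.24), while miR-196a-5p had 77918 and 81751 (0.34).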
